A study of Mus musculus with 8 samples.

Results

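The cholesterol and fatty acid synthesis genes described here are 30 genes chosen by name: 5 regulators of the SREBP transcription factors, 18 enzymes of sterol synthesis, the sterol carrier Stard4 and 6 enzymes of fatty acid synthesis. All 30 were found among the 16538 genes of the deposited table, and 23 of them had a mean of at least 1 RPKM and were tested. RNA-seq was done on stage 3 double-negative (DN3) thymocytes, which lack CD4 and CD8, immature T cells sorted at the stage of T cell receptor β rearrangement. Thymocytes came from 6-week-old C57BL/6 mice, with 4 libraries from control mice (Sel1l-f/f) and 4 from Sel1l CKO mice (Sel1l-f/f with hCD2cre). Both genotypes thus carry the floxed alleles, and the controls lack the Cre transgene, which a human CD2 promoter turns on in early thymic progenitors. SEL1L is the adaptor of the ubiquitin ligase HRD1 in endoplasmic reticulum (ER) associated degradation, and the comparison asks how the lipid genes of the ER membrane differ when it is deleted. The labels do not say that each library is a separate animal, so p-values measure the spread between these libraries.

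Cells make cholesterol from acetyl-CoA through mevalonate, isoprenoids, squalene and lanosterol, mostly on the ER membrane. The SREBP factors, encoded by Srebf1 and Srebf2, are themselves ER membrane proteins. SCAP escorts them to the Golgi for cleavage when sterols are low, and the INSIG proteins hold SCAP and SREBP in the ER when sterols are high. SREBP-2 mainly drives sterol synthesis genes, while SREBP-1 mainly drives those for fatty acids. Thymocytes that divide after β selection need new membrane, and both branches supply it.

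RPKM here is the reads counted on a gene divided by its whole span, introns included, and scaled to the size of the library. The reads counted on genes, recovered from the steps between low values, numbered 35191352 to 47778590 per control library and 32900253 to 50401359 per Sel1l CKO library. Sel1l itself, on chromosome 12, was at 1.83, 1.66, 1.61 and 1.57 RPKM across the controls (replicates 1 to 4) and 0.917, 0.876, 1.32 and 1.23 RPKM across the Sel1l CKO libraries. Its Sel1l CKO mean was 65.1% of the control mean (log2 fold change −0.59 ± 0.13 SE, limma adjusted p = 0.0327, from 0.0199 to 0.0981 when 1 library was left out), and all Sel1l CKO libraries lay below all controls. The remaining level was lower in replicates 1 and 2 than in replicates 3 and 4. Reads over the whole gene do not measure how much of the floxed alleles was deleted. All 13 DN3 markers were expressed, whereas the markers of natural killer cells and of thymic epithelium summed to at most 0.0676 and 0.565 RPKM in any library. The B cell list, nearly all of it Cd79b, summed to between 5.31 and 10.2 RPKM and the myeloid and dendritic list to between 3.62 and 9.49 RPKM, with the lowest sums in Sel1l CKO, and the 9 progenitor markers to at most 0.767 RPKM. The 3 gamma-delta T cell markers summed to 15.7 to 28.2 RPKM in controls and 9.75 to 18.3 RPKM in Sel1l CKO. These were Sox13, Zbtb16 and Id3, 1 of which reached 26.5 RPKM, and the listed gamma and delta receptor genes were not found by name. The 6 erythroid markers summed to at most 1.12 RPKM in controls and 2.66 RPKM in Sel1l CKO, the latter in replicate 1. The 11 reference genes of the unfolded protein response, such as the chaperone Hspa5, were higher in Sel1l CKO (11 of 11 past the adjusted p, median log2 fold change 1.66).

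None of the 23 tested lipid genes was higher in Sel1l CKO past an adjusted p of 0.05, and 1, the sterol reductase gene Tm7sf2, was lower (limma moderated test on log2(RPKM + 0.1), Benjamini-Hochberg over 6512 genes). Over all genes tested, 4.27% were higher and 1.01% were lower by the same rule. The median log2 fold change of the 23 genes was 0.14, against 0.01 over all genes tested. Of the 23 values 20 were above 0, where 3425 of the 6512 over all genes tested were. At an unadjusted limma p under 0.05, 2 of the 23 were higher and 1 was lower. Over all 6512 genes tested, 1356 had an unadjusted p under 0.05, and 735 of these were higher. With limma voom on the recovered reads, which could include all 30 genes, 0 were higher and 0 lower (the smallest adjusted p was 0.0579), where the shares over all genes were 2.83% higher and 1.34% lower.

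The Sel1l CKO libraries were spread widely. Sel1l CKO replicate 2 held the highest value of all 8 libraries for 24 of the 30 genes, and for 18 of the 23 tested. Over all genes tested, that library was the highest for 21.4%. Without it the median log2 fold change was 0.03 over the 22 genes that still passed the filter, 15 of them above 0, and 0 genes were higher and 0 lower. Over the 6496 genes tested both with and without it, 3353 were above 0, and 237 were higher and 43 lower past the adjusted p. This library is therefore given by itself in what follows, a choice made after its values were seen.

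**Figure D1:**
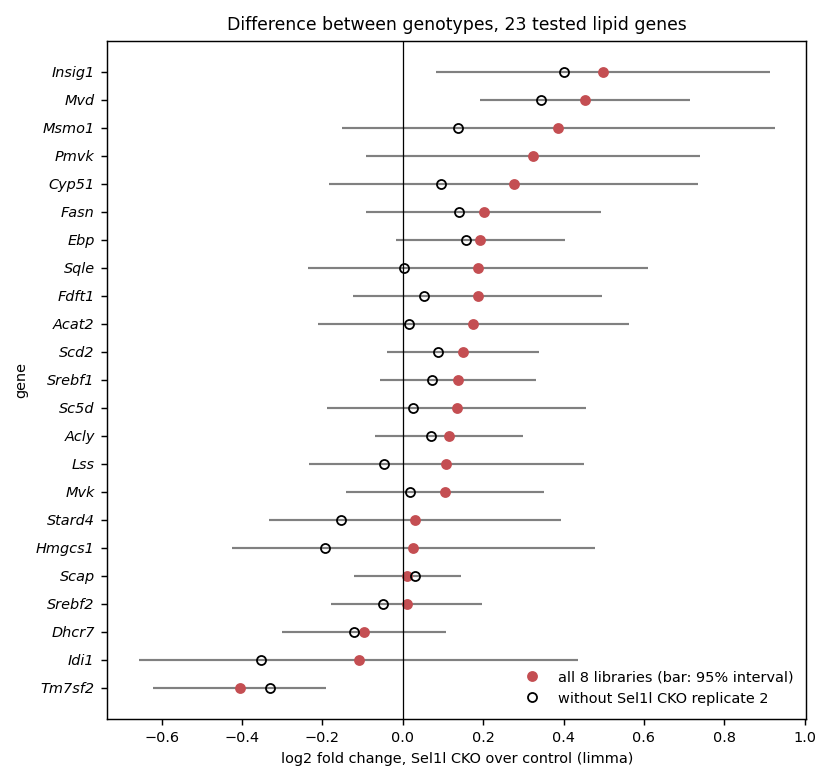
Log2 fold change of Sel1l CKO over control for the 23 tested lipid genes, with the 95% interval from limma as a bar and, as open circles, the value without Sel1l CKO replicate 2. Most intervals cross 0, Insig1, Mvd and Tm7sf2 do not, and Pmvk has no open circle because it fell below the filter without that library.

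Among the regulators, the transcription factor genes Srebf1 and Srebf2 and the escort gene Scap showed small differences, and 0 of the 4 tested regulators passed the adjusted p. Srebf2 was at 6.58, 7.01, 6.62 and 6.51 RPKM across the controls (replicates 1 to 4) and 7.10, 7.61, 6.01 and 6.27 RPKM across the Sel1l CKO libraries. The Sel1l CKO values thus lay on both sides of the controls, with replicates 1 and 2 above all of them and replicates 3 and 4 below all of them. The log2 fold change was 0.01, with a 95% interval from −0.18 to 0.20 (adjusted p = 0.963). Srebf1 was at 6.80, 6.31, 5.93 and 6.66 RPKM in controls and at 7.09, 8.12, 6.32 and 6.86 RPKM in Sel1l CKO. Its groups overlapped, with a log2 fold change of 0.14 and an interval from −0.06 to 0.33 (adjusted p = 0.395). Scap was the steadiest of the 3, at 3.76, 3.6, 3.49 and 3.45 RPKM in controls and 3.66, 3.45, 3.63 and 3.66 RPKM in Sel1l CKO. The interval of its log2 fold change ran from −0.12 to 0.14 (adjusted p = 0.935).

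Insig1, which encodes an ER anchor of SCAP and is itself a sterol-responsive gene, had the largest upward log2 fold change of the 23 genes but also a wide spread among controls. It was at 4.24, 3.46, 6.33 and 4.95 RPKM across the controls (replicates 1 to 4) and 5.26, 8.05, 6.73 and 6.58 RPKM across the Sel1l CKO libraries. Control replicate 3 lay above Sel1l CKO replicate 1, so the groups overlapped. The log2 fold change was 0.50 ± 0.18 (SE, adjusted p = 0.167), with 0.75 in replicates 1 and 2 alone and 0.25 in replicates 3 and 4 alone. Without Sel1l CKO replicate 2 it was 0.40 (adjusted p = 0.331). Its partner Insig2 was below the filter, at 0.421, 0.341, 0.327 and 0.340 RPKM in controls and 0.450, 0.528, 0.432 and 0.363 RPKM in Sel1l CKO. Control replicate 1 lay above Sel1l CKO replicate 4, and the two-sided exact permutation p over 70 assignments was 0.0571, where the smallest that 4 against 4 libraries allow is 0.0286.

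**Figure D2:**
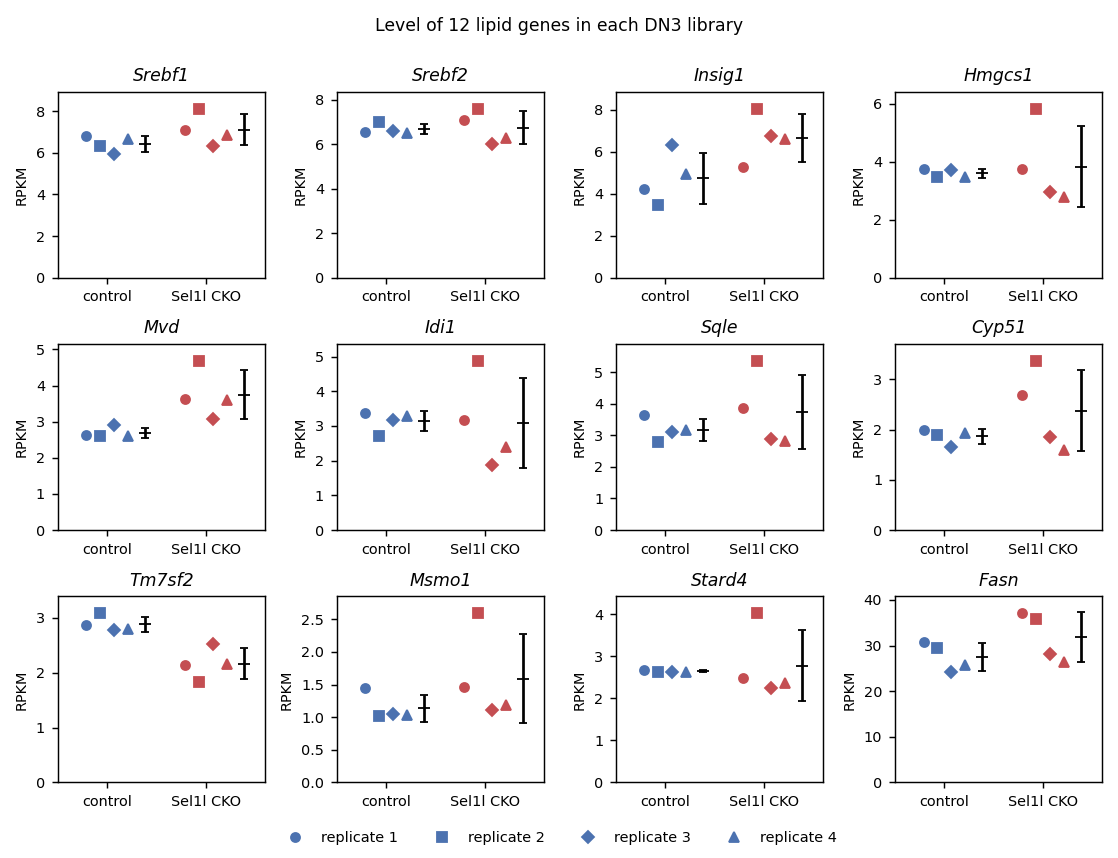
RPKM of 12 lipid genes in each library, control in blue and Sel1l CKO in red, with the replicate number as the symbol and the mean ± SD (n = 4) in black. Sel1l CKO replicate 2 (square) stands above the other libraries for Hmgcs1, Idi1, Sqle, Cyp51, Msmo1 and Stard4, while for Tm7sf2 it is the lowest.

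Of the 15 tested enzymes of sterol synthesis, 12 had a log2 fold change above 0 (median 0.18), where 3425 of all 6512 genes tested did. Past the adjusted p, 0 of the 15 were higher and 1 was lower. Within replicates 1 and 2 the median was 0.41, with 13 of 15 above 0, where all genes tested had a median of 0.03 and 54.5% above 0. Within replicates 3 and 4 the median was −0.06, with 4 of 15 above 0, where all genes tested had 50.6% above 0. Sel1l CKO replicate 1 exceeded every control library for 10 of the 15 and lay below every control for 1, against 39.2% above and 29% below over all genes tested. Sel1l CKO replicate 2 exceeded every control for 13 and lay below every control for 1, against 38.3% and 31.8%. In Sel1l CKO replicate 3 the counts were 2 above and 5 below, against 23.1% and 24.1%. In Sel1l CKO replicate 4 they were 2 above and 6 below, against 26% and 23.2%. The labels name no batch for these numbers, and whether they mark one was not tested. This split by number was made after the values were seen, and the numbers were not taken to pair libraries of the genotypes.

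In the early, cytosolic part of the pathway, Sel1l CKO replicate 2 was the highest library for Acat2, Hmgcs1 and Idi1. Hmgcs1, which encodes the synthase that makes HMG-CoA, was at 3.74, 3.45, 3.72 and 3.47 RPKM across the controls (replicates 1 to 4) and 3.75, 5.83, 2.95 and 2.77 RPKM across the Sel1l CKO libraries. The Sel1l CKO mean of 3.83 ± 1.40 RPKM (SD, n = 4) hardly differed from the control mean of 3.6 ± 0.156 RPKM. Replicate 2 lay well above all controls and replicate 1 just above them, while replicates 3 and 4 lay below all controls. The log2 fold change was 0.03, with an interval from −0.43 to 0.48 (adjusted p = 0.958), and it was −0.19 without replicate 2. Acat2, whose product condenses acetyl-CoA in the step before, was at 2.57, 2.43, 2.24 and 2.29 RPKM in controls and 2.97, 3.80, 2.37 and 1.97 RPKM in Sel1l CKO. Idi1, the isomerase of the isoprenoid building block, was at 3.38, 2.72, 3.18 and 3.29 RPKM in controls and 3.16, 4.87, 1.89 and 2.40 RPKM in Sel1l CKO. For Idi1, replicates 3 and 4 of Sel1l CKO were the lowest of the 8 libraries and replicate 2 the highest, and the fold change was −0.11 on the log2 scale (interval from −0.66 to 0.44, adjusted p = 0.831).

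Mvd, the mevalonate diphosphate decarboxylase gene (ENSMUSG00000006517.5, chromosome 8 of GRCm38, 122433601 to 122443422, minus strand), was the only tested member whose Sel1l CKO libraries all lay above all controls. Over all genes tested, 9.15% did so. Mvd was at 2.62, 2.61, 2.90 and 2.60 RPKM across the controls (replicates 1 to 4) and 3.64, 4.68, 3.07 and 3.59 RPKM across the Sel1l CKO libraries. The means were 2.68 ± 0.144 and 3.75 ± 0.673 RPKM (SD, n = 4), with the nearest values being 2.90 in control replicate 3 and 3.07 in Sel1l CKO replicate 3. The log2 fold change was 0.45 ± 0.12 (SE, interval from 0.19 to 0.72), and the limma adjusted p of 0.0581 missed the threshold. Within replicates 1 and 2 it was 0.64, and within replicates 3 and 4 it was 0.27. With replicates 1 and 2 against 3 and 4 as a term, the limma adjusted p was 0.0411. With a replicate block it was 0.0914, and limma voom gave 0.0579. Leaving out 1 library gave limma adjusted p values from 0.0269 (without Sel1l CKO replicate 3) to 0.146, with 1 of 8 fits under the threshold. The kinase genes of the 2 steps before, Mvk (1.1 to 1.28 RPKM in controls, 1.07 to 1.55 in Sel1l CKO) and Pmvk (0.740 to 1.06 and 0.893 to 1.55), had log2 fold changes of 0.10 and 0.32 (adjusted p = 0.609 and 0.355).

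The squalene and lanosterol steps again turned on Sel1l CKO replicate 2. Sqle, the squalene epoxidase gene, was at 3.62, 2.79, 3.11 and 3.15 RPKM in controls and at 3.85, 5.35, 2.90 and 2.83 RPKM in Sel1l CKO. Cyp51, the lanosterol demethylase gene, was at 2.0, 1.88, 1.66 and 1.93 RPKM in controls and 2.69, 3.37, 1.85 and 1.6 RPKM in Sel1l CKO. Msmo1, the sterol C4-methyl oxidase gene, was at 1.45, 1.02, 1.05 and 1.03 RPKM in controls and 1.47, 2.59, 1.11 and 1.19 RPKM in Sel1l CKO. In all 3 genes replicate 2 was the highest library, replicate 1 came next, and replicates 3 and 4 lay within or near the control range. Their log2 fold changes of 0.19, 0.28 and 0.39 had adjusted p values of 0.593, 0.462 and 0.390, and without replicate 2 they were 0.00, 0.10 and 0.14. Lss, which closes the sterol ring, was at 2.36 RPKM in Sel1l CKO replicate 2 and between 1.39 and 1.69 RPKM in the other libraries. Fdft1, the squalene synthase gene, was at 1.73 RPKM there and between 1.04 and 1.31 RPKM elsewhere.

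Tm7sf2 (ENSMUSG00000024799.16, chromosome 19, 6062821 to 6068373, minus strand) encodes a sterol reductase of the step after Cyp51 and went the other way. It was at 2.87, 3.08, 2.77 and 2.80 RPKM across the controls (replicates 1 to 4) and 2.14, 1.82, 2.52 and 2.16 RPKM across the Sel1l CKO libraries. The 4 Sel1l CKO values were all under the lowest control, and replicate 2, the highest for most sterol genes, was the lowest here. Over all genes tested, 5.59% had every Sel1l CKO library below every control. The means were 2.88 ± 0.14 and 2.16 ± 0.284 RPKM (SD, n = 4), and Tm7sf2 fell by 0.41 ± 0.10 (SE) on the log2 scale (limma adjusted p = 0.0424). Leaving out 1 library kept the call in 1 of 8 fits, with adjusted p values from 0.0202 without Sel1l CKO replicate 3 to 0.114 without control replicate 2, and limma voom gave 0.0722. Tm7sf2 overlaps Vps51 on the same strand, so how the counting shared reads between them is uncertain. Vps51 itself was at 4.41 ± 0.337 RPKM in controls and 4.36 ± 0.399 RPKM in Sel1l CKO (SD, n = 4).

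The last enzymes of the pathway were mixed. Ebp, the sterol isomerase gene, was highest in Sel1l CKO replicate 1 (5.60 RPKM) and had a log2 fold change of 0.19 (adjusted p = 0.279). Sc5d, the sterol desaturase gene, was at 3.0 RPKM in Sel1l CKO replicate 2 against 1.93 to 2.61 RPKM in the other libraries. Dhcr7, which makes cholesterol from its last precursor on one branch, was highest in control replicate 3 (4.90 RPKM) and was not raised in replicate 2, which was at 4.35 RPKM. Its log2 fold change was −0.10 (interval from −0.30 to 0.11, adjusted p = 0.565).

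Stard4, which carries sterol between membranes and is a known SREBP-2 target, had the tightest controls of the list. It was at 2.68, 2.64, 2.64 and 2.63 RPKM across the controls (replicates 1 to 4) and 2.49, 4.03, 2.25 and 2.37 RPKM across the Sel1l CKO libraries. Replicate 2 was above every control and the other 3 Sel1l CKO libraries were below every control. The log2 fold change was 0.03 with all libraries (interval from −0.33 to 0.39, adjusted p = 0.930) and −0.15 without replicate 2 (adjusted p = 0.266).

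**Figure D3:**
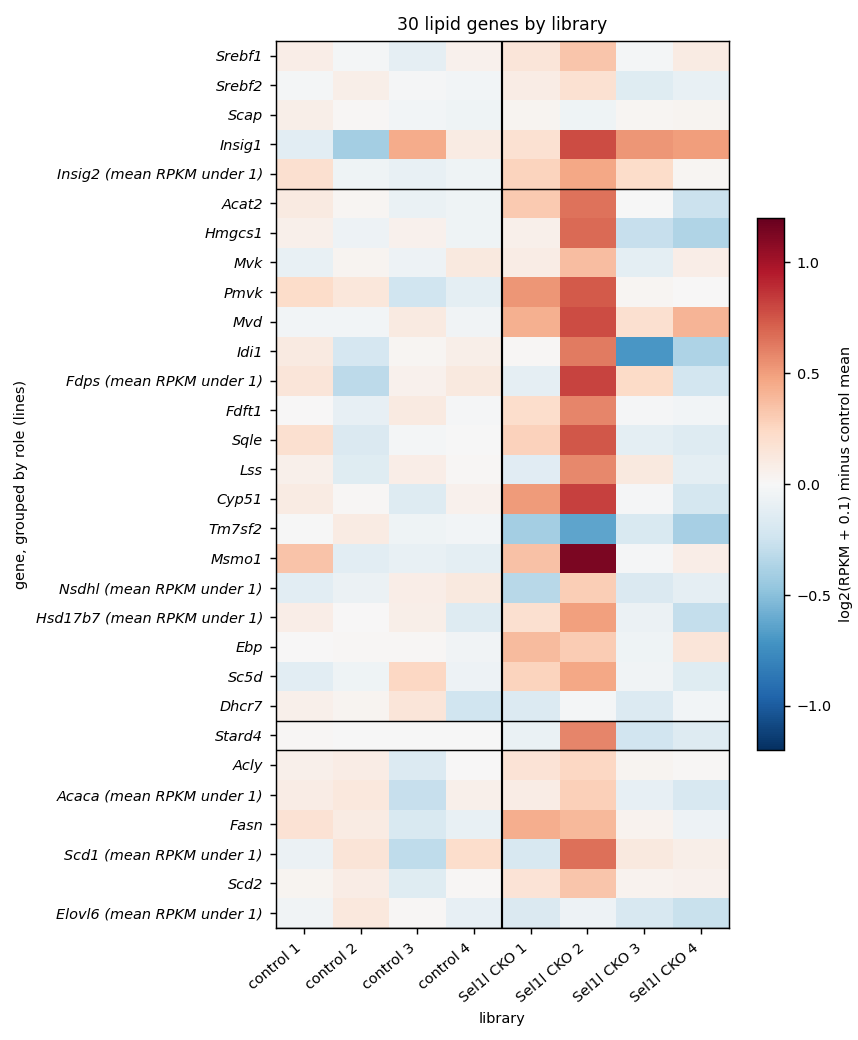
Log2(RPKM + 0.1) of each of the 30 lipid genes in each library, minus the mean of the 4 controls, with genes ordered by role (regulators, sterol synthesis, Stard4, fatty acid synthesis). Red is above and blue below the control mean. The column of Sel1l CKO replicate 2 is red for most sterol genes and blue for Tm7sf2. Those of replicates 3 and 4 are pale or blue for most genes, but red for Insig1 in both and for Mvd in replicate 4.

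The height of Sel1l CKO replicate 2 was measured for each gene as its log2(RPKM + 0.1) minus the mean of the other 3 Sel1l CKO libraries. This difference was over 0.59 for 8 of the 23 tested lipid genes, namely Msmo1 (0.997), Idi1 (0.98), Hmgcs1 (0.87), Stard4 (0.74), Sqle (0.74), Cyp51 (0.72), Acat2 (0.64) and Lss (0.62). Over all genes tested, the share past the same mark was 1.01%. On the linear scale, the library held 2.06 times the mean of the other 3 for Msmo1, 1.96 times for Idi1 and 1.84 times for Hmgcs1. Of the 15 tested sterol enzymes 7 were past the mark, against 0 of the 4 regulators and 0 of the 3 fatty acid enzymes. This describes 1 library, has no replicate and was noticed in these values, so no test was made of it.

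This library also differed in other values, some of which Sel1l CKO replicate 1 shared. It was the deepest, with 50401359 reads, and had the lowest Sel1l level, at 0.876 RPKM against 0.917 RPKM in Sel1l CKO replicate 1. The mean log2 difference from controls over 18 proliferation genes was 0.40 and 0.45 in Sel1l CKO replicates 1 and 2, −0.05 and −0.08 in replicates 3 and 4, and between −0.31 and 0.17 in controls. Of the 18 proliferation genes, 0 were past the adjusted p for genotype, and Sel1l CKO replicate 2 was the highest of 8 libraries for 11. Over the 13 DN3 markers the same mean was −0.44 in Sel1l CKO replicate 2, between −0.24 and −0.21 in the other Sel1l CKO libraries and between −0.11 and 0.13 in controls. All 4 Sel1l CKO libraries thus lay below all controls in this mean. Of the 13 markers, 2 had a log2 fold change above 0 (median −0.26), and 0 were past the adjusted p for genotype. Replicate 2 was the lowest of the 4 Sel1l CKO libraries for 6 of the 13 and the highest for 3. Over 10 later thymocyte markers the mean log2 difference was 0.55 in replicate 2, between −0.17 and 0.18 in the other Sel1l CKO libraries and between −0.22 and 0.17 in controls. Replicate 2 was the highest of the 4 Sel1l CKO libraries for 7 of the 10. Of these 10 markers 7 had a mean under 1 RPKM, and their summed level in replicate 2 was 41.6 RPKM, below the controls at 43.4 to 50.7 RPKM. The part of depth, proliferation and cell stage in the sterol gene values was not tested, and in bulk RNA a change in the mix of cells and a change within cells cannot be told apart.

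**Figure D4:**
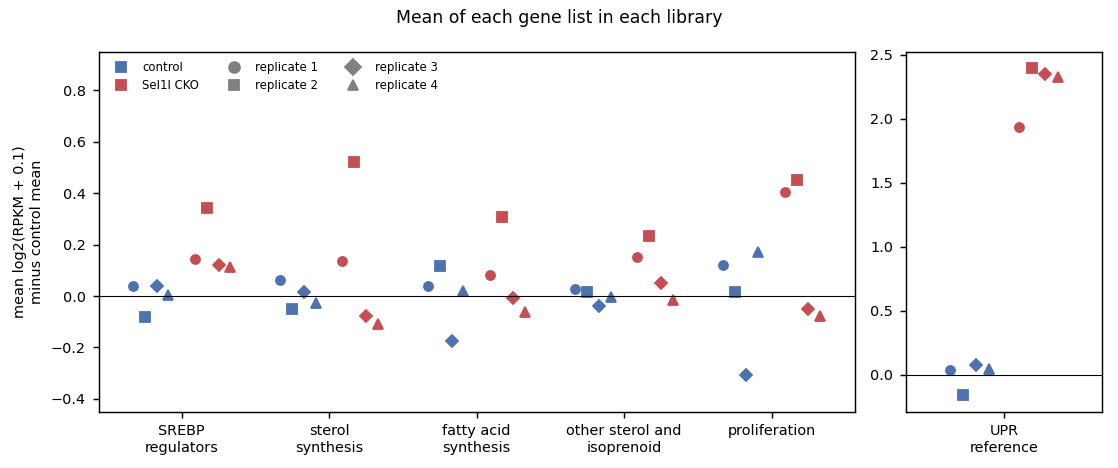
Mean over each gene list of log2(RPKM + 0.1) minus the control mean, by library, control in blue and Sel1l CKO in red with the replicate number as the symbol. The right panel has its own axis. For sterol synthesis, Sel1l CKO replicate 2 stands at 0.52 and replicates 3 and 4 lie at −0.08 and −0.11, whereas the 4 Sel1l CKO libraries lie between 1.94 and 2.39 for the unfolded protein response.

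Across the 18 sterol enzymes, the mean log2 difference from controls was 0.14, 0.52, −0.08 and −0.11 in Sel1l CKO replicates 1 to 4. For the 5 regulators it was 0.14, 0.34, 0.12 and 0.11, and for the 6 fatty acid enzymes 0.08, 0.31, −0.01 and −0.06. The unfolded protein response list was at 1.94, 2.39, 2.35 and 2.32 in the same libraries. The stress genes were thus raised in all 4 libraries, including replicates 3 and 4, in which the sterol enzymes lay slightly below the controls on average.

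The promoters of the sterol genes that stood out in Sel1l CKO replicate 2 are shown, for the 6 of the 8 that had a RefSeq promoter, because those genes were high together in that library. Sequences are from RefSeq on GRCm38.p6, cover the 180 bases before the annotated start, and are written 5′ to 3′ on the strand of the gene. Capitals mark CCAAT boxes (CCAAT, or ATTGG where the box lies on the other strand) and, in Hmgcs1, the 9 bases of a sterol response element (SRE, TCACNCCAC). Acat2 has no CCAAT box in this stretch. The Srebf2 promoter is given beside the 6 enzymes as that of their regulator, whose own values differed little. The Hmgcs1 stretch is chr13:119690171-119690350 (plus strand), Idi1 chr13:8885426-8885605 (plus), Msmo1 chr8:64733579-64733758 (minus), Cyp51 chr5:4104698-4104877 (minus), Acat2 chr17:12960726-12960905 (minus), Lss chr10:76531425-76531604 (plus) and Srebf2 chr15:82147089-82147268 (plus).
Hmgcs1: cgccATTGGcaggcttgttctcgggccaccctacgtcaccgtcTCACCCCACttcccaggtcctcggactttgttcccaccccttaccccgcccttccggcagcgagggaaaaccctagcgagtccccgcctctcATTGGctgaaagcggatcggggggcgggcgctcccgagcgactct
Idi1: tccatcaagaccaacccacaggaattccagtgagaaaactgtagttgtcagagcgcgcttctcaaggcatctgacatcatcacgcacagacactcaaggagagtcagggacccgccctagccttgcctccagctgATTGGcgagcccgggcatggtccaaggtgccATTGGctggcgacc
Msmo1: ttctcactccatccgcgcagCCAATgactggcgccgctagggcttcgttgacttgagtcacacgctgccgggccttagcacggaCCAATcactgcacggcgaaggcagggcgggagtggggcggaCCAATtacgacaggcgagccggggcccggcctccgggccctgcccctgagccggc
Cyp51: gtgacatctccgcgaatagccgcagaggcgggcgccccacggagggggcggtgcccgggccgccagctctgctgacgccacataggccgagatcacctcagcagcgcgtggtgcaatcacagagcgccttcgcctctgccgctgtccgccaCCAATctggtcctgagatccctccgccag
Acat2: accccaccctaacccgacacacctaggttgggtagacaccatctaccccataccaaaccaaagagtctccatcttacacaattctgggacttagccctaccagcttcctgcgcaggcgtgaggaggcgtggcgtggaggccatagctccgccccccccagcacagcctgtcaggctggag
Lss: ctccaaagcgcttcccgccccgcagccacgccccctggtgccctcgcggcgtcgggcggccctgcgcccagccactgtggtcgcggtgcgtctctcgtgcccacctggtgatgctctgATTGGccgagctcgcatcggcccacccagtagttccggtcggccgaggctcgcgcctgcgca
Srebf2: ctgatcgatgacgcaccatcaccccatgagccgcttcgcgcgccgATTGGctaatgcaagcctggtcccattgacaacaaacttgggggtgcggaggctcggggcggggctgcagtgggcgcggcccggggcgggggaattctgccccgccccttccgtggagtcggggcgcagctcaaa

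Of the 30 lipid genes, 24 had a RefSeq promoter of 250 bases before to 50 bases after the start. Both strands were searched for each motif, and no motif was allowed a mismatch. The CCAAT box, bound by NF-Y, which works beside SREBP on many sterol promoters, was in 20 of 24 (83.3%), against 41.1% of 27025 genes and 44.0% of the genes tested. The GC-rich Sp1 box (GGGCGG) was also in 20 of 24, against 71.4% of the genes tested. The SRE letters TCACNCCAC were in 1 of 24, Hmgcs1, where they begin 137 bases before the start, against 1.44% of genes and 1.21% of the genes tested. The E-box CACGTG was in 5 of 24 (Scap, Insig1, Hsd17b7, Sc5d and Dhcr7), or 20.8%, against 8.09% of genes and 12.8% of the genes tested. The C/EBP-ATF response element (CARE, TGATGNAAT) was in 0 of 24, against 1.08% of genes and 0.384% of the genes tested. A match describes the letters in this window only.

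Of the 6 fatty acid genes, Scd2, Fasn and Acly had the highest RPKM of the whole list, Acaca, Scd1 and Elovl6 were below the filter, and 0 of the 3 tested passed the adjusted p. Fasn, the fatty acid synthase gene, was at 30.9, 29.4, 24.1 and 25.7 RPKM across the controls (replicates 1 to 4) and 37.1, 35.9, 28.2 and 26.3 RPKM across the Sel1l CKO libraries. Replicates 1 and 2 were the highest within each genotype, and the groups overlapped (log2 fold change 0.20, interval from −0.09 to 0.49, adjusted p = 0.408). Scd2, the main stearoyl-CoA desaturase gene in these cells, was between 46.3 and 54.7 RPKM in controls and between 52.8 and 64.6 RPKM in Sel1l CKO (log2 fold change 0.15, interval from −0.04 to 0.34, adjusted p = 0.351). Acly, which makes cytosolic acetyl-CoA for both branches, was between 7.43 and 8.87 RPKM in controls and between 8.41 and 9.88 RPKM in Sel1l CKO (log2 fold change 0.11, interval from −0.07 to 0.30, adjusted p = 0.449). All 3 log2 fold changes were above 0 within replicates 1 and 2 and within replicates 3 and 4, with medians of 0.19 and 0.11.

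The 7 genes below the filter were Insig2, Fdps, Nsdhl, Hsd17b7, Acaca, Scd1 and Elovl6, with two-sided exact permutation p values from 0.0571 to 0.857. Elovl6, a fatty acid elongase gene, was at 0.363, 0.423, 0.383 and 0.346 RPKM in controls and 0.324, 0.357, 0.318 and 0.296 RPKM in Sel1l CKO, with 1 Sel1l CKO library (replicate 2) inside the control range (exact permutation p = 0.0571). Acaca, the acetyl-CoA carboxylase gene, had a low RPKM over its long span, with between 3667 and 8356 reads per library, and was at 0.487 ± 0.0701 RPKM in controls and 0.497 ± 0.0886 RPKM in Sel1l CKO (SD, n = 4). Scd1, at 0.0622 to 0.215 RPKM, had only 29 to 144 reads and Fdps, the farnesyl diphosphate synthase gene, 52 to 207 reads per library. Fdps overlaps the annotated gene Gm43738 on the same strand, so its count is uncertain. Srebf1, Mvd, Fdft1, Cyp51 and Acaca overlap another protein-coding gene on the opposite strand, which matters if the counting ignored strand. For Fdps, Nsdhl and Hsd17b7, Sel1l CKO replicate 2 was again the highest library, at 0.491, 0.981 and 0.673 RPKM, where controls reached 0.273, 0.853 and 0.483 RPKM. The remaining Sel1l CKO libraries lay at 0.189 to 0.294, 0.597 to 0.717 and 0.350 to 0.528 RPKM for these 3 genes.

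Levels of different genes were compared per length of exon, with RPKM recomputed from the recovered reads. In controls Scd2 was the highest of the 30 at 124 ± 8.6 RPKM on exon length, followed by Acly at 81.6 ± 6.25, Srebf2 at 54.0 ± 1.83 and Fasn at 45.9 ± 5.22 (SD, n = 4), and these 4 did not overlap between neighbours. Srebf1 (26.8 ± 1.62) and Scap (24.8 ± 0.974) came next and overlapped each other. The highest sterol enzymes were Dhcr7 (19.3 ± 2.17), Acat2 (16.7 ± 1.02) and Ebp (15.2 ± 0.273), and from Ebp down to Idi1 (6.23 ± 0.586) each gene overlapped the next in the order. Srebf2 transcripts were thus above Srebf1 in every control library on this scale. The 2 desaturase genes stood far apart, with Scd1 at 0.277 ± 0.0865 RPKM on exon length, the lowest of the 30.

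Of 56 other tested lipid genes, from 5 lists of related pathways, 3 (5.36%) were higher and 1 (1.79%) was lower past the adjusted p, near the shares over all genes tested of 4.27% and 1.01%. Among 11 tested genes of SREBP processing, 1 was higher and 0 lower, and the 1 was Syvn1, which encodes HRD1, the ligase partner of SEL1L, rather than a step of lipid synthesis. Syvn1 was between 10.4 and 11.4 RPKM in controls and between 18.9 and 31.7 RPKM in Sel1l CKO (log2 fold change 1.24 ± 0.15 SE, adjusted p = 0.000972). Of 11 other sterol and isoprenoid genes and 11 other genes of fatty acid synthesis and elongation, 0 and 0 passed, with median log2 fold changes of 0.05 and 0.03. With limma voom, Dhdds of the first of these lists had an adjusted p of 0.0430.

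The other 3 calls were of genes for sterol handling and membrane lipids. Among 10 tested genes of cholesterol uptake, storage and export, the sterol exchanger gene Osbp was higher, at 3.66, 3.51, 3.19 and 3.18 RPKM in controls and 4.37, 4.72, 5.16 and 5.30 RPKM in Sel1l CKO (log2 fold change 0.51 ± 0.08 SE, adjusted p = 0.00645). The lysosomal sterol carrier gene Npc2 was lower, at 10.2, 12, 13.1 and 10.8 RPKM in controls and 8.68, 8.65, 9.26 and 8.84 RPKM in Sel1l CKO (fell by 0.37 on the log2 scale, adjusted p = 0.0338, and 0.0285 to 0.10 when 1 library was left out, with the call kept in 1 of 8 fits). Among 13 tested genes of phospholipid and triacylglycerol synthesis, the glycerol phosphate acyltransferase gene Gpat4 was higher, at 3.02, 3.13, 3.07 and 2.62 RPKM in controls and 4.29, 3.95, 4.99 and 5.21 RPKM in Sel1l CKO (log2 fold change 0.62 ± 0.10 SE, adjusted p = 0.00766). For Osbp and Gpat4 the groups did not overlap and Sel1l CKO replicates 3 and 4 were the highest, unlike the order of the sterol enzymes.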

How the data were processed

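DN3 RNA-seq of 4 control and 4 Sel1l CKO libraries was analysed, grouped by the genotype in the labels. The authors used a stranded mRNA kit, sequenced paired ends, aligned reads with STAR 2.5.2b to GRCm38, counted protein-coding genes with HTSeq 2.7 (version as in the submitters' processing notes) and deposited RPKM values, 1 column per library. How RPKM was computed and whether counting used the strand are not given in the sources used here. Low values were whole reads (tolerance 0.02) for 75.3% of genes on GENCODE M21 gene spans against 3.24% on exon length, so spans include introns, and reads were recovered for 97.9% of genes with a value. Depth limits genes with few reads most.

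Values were analysed with R 4.3.3, limma 3.58.1, Python 3.11.15, numpy 2.4.6 and pandas 2.3.3. For genes averaging 1 RPKM or more, log2(RPKM + 0.1) entered limma's moderated test with a trend, genotype as the only term, two-sided, with Benjamini-Hochberg adjustment over all genes tested and a threshold of 0.05. Genes below the filter had exact permutation tests. This script was tested on simulated data. Members, lists, motifs and alternatives were chosen with earlier results of these data known. Members past the threshold, regulators and members without overlap between groups have every library's value. Alternatives were pseudocounts of 1 and 0.01, filters of 0.1, 5 and none, 3 rescalings (same RPKM sum, median-of-ratios, quantile), limma without trend, array weights, a replicate block, replicates 1 and 2 against 3 and 4 as a term, limma voom on recovered reads with a mean of at least 10, RPKM on exon length, and leaving out each library. Sel1l CKO replicate 2 by itself and the values within replicates 1 and 2 and within 3 and 4 were added after seeing the data. Listed genes without a row of that name were not analysed here.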

Additional observations from a re-analysis of the deposited data

Results flagged for a closer look

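In each genotype's 4 libraries, the gap of the highest or lowest library to its nearest neighbour was compared with the whole range. Of 74 such groups (30 lipid genes, Sel1l and 6 list means), 10 had a library past Dixon's 95% critical value for 4 samples, where chance alone gives about 3.7. Stard4 in Sel1l CKO replicate 2 was at 4.03 RPKM, far from the other 3 Sel1l CKO libraries at 2.25 to 2.49. Scap in the same library was at 3.45 RPKM, against 3.63 to 3.66. The mean log2 difference from controls of the SREBP regulators was 0.34 in Sel1l CKO replicate 2, against 0.11 to 0.14 in the others. The mean over all 30 lipid genes was set apart in control replicate 1, at 0.0524 against −0.021 to −0.011.

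Single control libraries stood apart for Msmo1 (1.45 RPKM in replicate 1, others 1.02 to 1.05), Mvd (2.90 RPKM in replicate 3, others 2.60 to 2.62), Insig2 (0.421 RPKM in replicate 1, others 0.327 to 0.341) and Ebp (4.17 RPKM in replicate 4, others 4.32 to 4.34). The unfolded protein response list stood apart in control replicate 2 (−0.16, others 0.04 to 0.07) and in Sel1l CKO replicate 1 (1.94, others 2.32 to 2.39).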

How the results depend on the processing

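The call of Tm7sf2 rested on the processing, while its log2 fold change stayed between −0.48 and −0.29 in the fits that tested it: 1 member was lower in the reported fit, and 0 were lower with RPKM on exon length, limma voom, a mean RPKM of at least 0.1 or 5 (the latter leaves Tm7sf2 untested), no filter, the same RPKM sum or the replicate block, and 0 to 1 when 1 library was left out. The number higher was 0 in the reported fit, 2 with array weights (Insig1 and Mvd), 1 with replicates 1 and 2 against 3 and 4 as a term and 0 to 1 when 1 library was left out (Mvd). The genes called among all tested, 344, became 640 with array weights, 525 with the replicate term and 218 with a mean RPKM of at least 5, where fewer genes were tested. The higher share of those calls, 80.8%, was 67.9% with limma voom, 65.3% with the replicate term and 71.6% with array weights. The median log2 fold change of the tested members was 0.14, 0.022 with array weights, 0.03 to 0.19 when 1 library was left out, 0.33 within replicates 1 and 2 and −0.05 within 3 and 4.

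Array weights, which were lowest for Sel1l CKO replicates 1 and 2, turned the sign of Srebf2 (−0.090), Acat2 (−0.030), Hmgcs1 (−0.22), Mvk (−0.030), Sqle (−0.063), Cyp51 (−0.015) and Stard4 (−0.15), and quantile normalization that of Srebf2 (−0.035) and Scap (−0.0015), none of them past the threshold. Leaving out 1 library gave log2 fold changes on both sides of 0 for Srebf2 (−0.049 to 0.062), Scap (−0.0052 to 0.035), Hmgcs1 (−0.19 to 0.16), Idi1 (−0.35 to 0.087), Lss (−0.047 to 0.19), Stard4 (−0.15 to 0.12), Acaca (−0.070 to 0.092), Nsdhl (−0.21 to 0.0052), Fdps (−0.035 to 0.31), Hsd17b7 (−0.056 to 0.20) and Scd1 (−0.00029 to 0.28). Of the other single-gene values, 548 kept their direction and side of the threshold. Same-numbered libraries of the 2 genotypes did not deviate together in every pair (r = 0.16, 0.10, 0.45 and 0.01), so the numbers were not taken to pair them. Control replicates 1 and 2 had r of 0.10 to 0.29 with Sel1l CKO replicates 1 and 2, and −0.25 to −0.22 with 3 and 4. Control replicate 3 had −0.38 and −0.36 with Sel1l CKO replicates 1 and 2, and 0.45 and 0.40 with 3 and 4. Control replicate 4 had −0.08 to 0.09 with all of them. What these shared deviations reflect was not tested. The replicate block left 0 members lower and gave Tm7sf2 an adjusted p of 0.0925 and Sel1l one of 0.0601. For Sel1l the adjusted p also missed the threshold with no filter (0.0904) and the same RPKM sum (0.0649), and when control replicate 1, 2, 3 or 4 or Sel1l CKO replicate 1 or 2 was left out (0.0646 to 0.0981). Where no value above shows it, the cause was not tested.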

Other observations

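Mid1ip1, which encodes a regulator of acetyl-CoA carboxylase and was named after its values were seen, was highest in Sel1l CKO replicate 2, as most sterol enzymes were, at 4.52, 3.61, 3.33 and 4.94 RPKM across the controls (replicates 1 to 4) and 5.28, 9.41, 3.82 and 4.63 RPKM across the Sel1l CKO libraries (limma adjusted p = 0.377). Soat1, which stores cholesterol as ester, was lowest in Sel1l CKO replicate 2, at 0.98, 0.836, 1.65 and 1.55 RPKM against 1.57, 1.76, 1.87 and 1.44 RPKM in controls (limma adjusted p = 0.272). Among the stress genes, the ATF4 targets Asns and Trib3 were also highest in Sel1l CKO replicate 2, at 9.40 and 9.58 RPKM against 1.86 to 4.47 and 1.35 to 3.92 RPKM in the other Sel1l CKO libraries, while Hspa5 was lowest there among the Sel1l CKO libraries (311 RPKM against 365 to 422). Replicate 2 was the highest of 8 libraries for 2 of the 11 stress genes, near the share of 21.4% over all genes tested. The median log2 difference of replicate 2 from the other Sel1l CKO libraries was −0.04 over the list.

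Npc1, the membrane partner of Npc2 in lysosomal sterol export, was at 2.22, 2.38, 2.39 and 2.10 RPKM in controls and 1.79, 1.63, 1.92 and 1.94 RPKM in Sel1l CKO, and the protease gene Mbtps1, which makes the first cut of SREBP, was at 7.64, 6.76, 6.01 and 6.98 RPKM in controls and 5.68, 4.92, 5.52 and 5.38 RPKM in Sel1l CKO. Neither passed the reported fit (limma adjusted p = 0.0591 and 0.0519), and with limma voom they had adjusted p values of 0.0458 and 0.0419. In both genes all Sel1l CKO values were under the lowest control, as they were for 5.59% of all genes tested. Both were named after their values were seen.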
